A study of Mus musculus with 12 samples.

Results

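The 4 early growth response genes Egr1, Egr2, Egr3 and Egr4 were taken by name from the 31053 genes of a single-nucleus RNA data set, and their levels were followed across cell classes and between trained and control mice. The tissue came from the right hemisphere, from the part of primary motor cortex known as the caudal forelimb area. The mice were 13 weeks old, and neither a strain nor a transgene is named in the labels. Trained mice (2, 4 and 6) had their water limited to 1 mL per day for 10 days and then, on days 11 to 13, earned 0.3 to 0.8 mL of that amount by pressing a lever with the left paw while head-fixed, 100 trials per session. Control mice (1, 3 and 5) had the same daily water and stayed in the home cage on days 11 to 13 as well. The interval between the last session and dissection is not given in the sources used here. Each mouse is 1 replicate. Its library was sequenced in a shallow and a deep run, the deposited matrix holds 1 set of counts per mouse, and whether both runs entered it is not given in the sources used here.

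EGR proteins are zinc-finger transcription factors of the immediate early gene class: neuronal activity and growth factors switch the genes on within minutes, without new protein synthesis, through serum response factor with its ELK partners and through CREB. The proteins bind GC-rich sites in other genes and are restrained by the corepressors Nab1 and Nab2, and in cortex their transcripts are widely used as marks of recently active neurons. Egr1 (also called Zif268) is tied to the upkeep of synaptic plasticity and memory, and Egr3 acts in plasticity and in the formation of muscle spindles. Egr2 (Krox20) is best known for hindbrain patterning and the myelination of peripheral nerve, and Egr4 is the least studied of the family in brain.

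All 4 genes were detected, with 31366 UMIs (unique molecules) of Egr1, 1293 of Egr2, 17753 of Egr3 and 12579 of Egr4 in the 49292 nuclei kept. Egr2 was therefore by far the most thinly sampled, and its values carry the widest counting error. The promoter table used here (RefSeq, GRCm38.p6) held windows for 2 of the 4 genes, Egr2 and Egr4. They are shown because, in pooled glutamatergic nuclei, both genes were high in the same mice as Fos, Arc and Junb. Whether the sequence of these windows has a part in that was not tested. Capitals mark the core of the cyclic AMP response element, CGTCA read on either strand, and the CArG box to which serum response factor binds.

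Egr4, chr6:85513590-85513839 (minus strand): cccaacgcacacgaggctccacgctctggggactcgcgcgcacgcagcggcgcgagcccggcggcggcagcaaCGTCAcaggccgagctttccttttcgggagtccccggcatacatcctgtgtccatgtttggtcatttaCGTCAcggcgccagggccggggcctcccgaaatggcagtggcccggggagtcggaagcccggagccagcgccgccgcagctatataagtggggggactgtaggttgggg
Egr2, chr10:67537619-67537868 (plus strand): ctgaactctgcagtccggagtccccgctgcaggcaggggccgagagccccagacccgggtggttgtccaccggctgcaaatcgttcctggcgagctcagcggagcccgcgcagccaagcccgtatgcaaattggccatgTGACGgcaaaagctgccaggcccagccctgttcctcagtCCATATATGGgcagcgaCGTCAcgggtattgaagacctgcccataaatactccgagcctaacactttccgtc

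Each window covers the 250 bases before a transcription start. The Egr4 window held 2 CRE cores, which began 177 and 109 bases upstream of the start. The Egr2 window, 1 of 5 given for that gene, held 2 CRE cores, 111 and 55 bases upstream, and 1 CArG box 72 bases upstream. Another Egr2 window, from 67535249 to 67535498, held neither. The window from 67537316 to 67537565 held 1 CArG box and no CRE core. The remaining Egr2 windows overlap the printed one and repeat its matches. Among 32851 promoter windows of the same length, 17.8% held a CRE core, 1.55% the full element TGACGTCA and 1.47% a CArG box. The full element and the EGR site GCGNGGGCG, found in 4.7% of windows, had no match in either sequence printed. These are matches of letters in 1 window each.

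In the mm10 build, with GENCODE M21, Egr1 lies on chromosome 18 from 34859823 to 34864984 (plus strand), Egr2 on chromosome 10 from 67535475 to 67542188 (plus strand), Egr3 on chromosome 14 from 70077203 to 70082614 (plus strand) and Egr4 on chromosome 6 from 85511121 to 85513589 (minus strand). The 6 libraries held 46798359 to 62741326 UMIs in trained mice and 56099142 to 91495029 UMIs in control mice. Median UMIs per nucleus were 6843, 5749 and 7205 in trained mice 2, 4 and 6, against 6874, 5215 and 5302 in control mice 1, 3 and 5. Nuclei were grouped by markers into 18 classes with at least 20 nuclei in every mouse, 7 of them glutamatergic, 4 GABAergic, 4 glial and 3 vascular, and every class name means that its nuclei resemble that type. IT, CT and NP stand for intratelencephalic, corticothalamic and near-projecting neurons. Clusters 4 and 10 are glutamatergic clusters that met no single name, with Il1rapl2, Scube1, Rxfp2 and Deptor leading the first and Tcerg1l, Tmem163, Lgr5, Npr3 and Chst8 leading the second. Slc17a7, which encodes the vesicular glutamate transporter of cortical excitatory neurons, stood at 143 to 323 CPM (UMIs of the gene in each 1000000 UMIs of the class) in the glutamatergic classes, and Gad1, the GABA-synthesising enzyme, at 182 to 679 CPM in the GABAergic classes against at most 6.41 CPM in the glutamatergic ones. Activity-regulated genes, the Egr genes among them, were left out of the clustering.

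All 4 genes were higher in glutamatergic nuclei than in GABAergic nuclei, and the difference was widest for Egr3. Pooled over the 7 glutamatergic classes and 129 nuclei of an L6b class too small to be described alone, Egr3 ranged over the 6 mice from 44.7 to 87.2 CPM, with a mean of 62.0 ± 18.9 CPM (SD, n = 6), against 5.87 ± 1.93 CPM in the 4 GABAergic classes together. The glutamatergic nuclei exceeded the GABAergic nuclei in 6 of 6 mice for each of the 4 genes. Egr1 averaged 98.1 ± 30.4 CPM in glutamatergic and 42.7 ± 16.6 CPM in GABAergic nuclei, Egr2 4.403 ± 2.42 and 0.711 ± 0.398 CPM, and Egr4 42.6 ± 19.9 and 7.55 ± 3.58 CPM (SD, n = 6 mice each). These amounted to 12.1-fold for Egr3, 6.45-fold for Egr2, 6.41-fold for Egr4 and 2.68-fold for Egr1. On the log2 scale the differences were 3.60 ± 0.09, 2.69 ± 0.23, 2.68 ± 0.10 and 1.42 ± 0.07 (SE). All 4 passed edgeR's quasi-likelihood test with mouse as a block, with Benjamini-Hochberg adjusted p of 1.78e-15, 2.63e-08, 2.26e-13 and 1.7e-11. The background was high, since 70.2% of the 16443 genes tested differed between these pooled classes and 32.4% were higher in glutamatergic nuclei.

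Against glia the same genes were again higher in glutamatergic nuclei in 6 of 6 mice. Glial nuclei, the 4 classes with 205 differentiating oligodendrocytes, had 51.4 ± 7.83 CPM of Egr1, 1.84 ± 0.386 CPM of Egr2, 12.9 ± 1.71 CPM of Egr3 and 16.6 ± 4.12 CPM of Egr4 (SD, n = 6). The log2 differences, glutamatergic over glial, were 1.35 ± 0.13 for Egr1, 1.67 ± 0.21 for Egr2, 2.67 ± 0.14 for Egr3 and 1.75 ± 0.17 for Egr4 (SE), with adjusted p between 4.6e-10 and 5.25e-06 by edgeR, where 82.6% of 16989 genes differed and 42.1% were higher in glutamatergic nuclei. With doublets kept, the Egr3 difference from glia was 1.74. The SD over mice was wider in glutamatergic nuclei than in glia for all 4 genes.

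The classes did not follow the same order for each gene, as the plot of levels by class shows. Egr1 was highest in L4/5 IT nuclei at 161 ± 48.3 CPM, followed by L6 CT nuclei at 153 ± 43.4 CPM, pericytes and smooth muscle at 145 ± 56.4 CPM, cluster 4 at 108 ± 34.0 CPM and Vip interneurons at 100.1 ± 35.5 CPM (SD, n = 6 mice each). It was lowest in Pvalb interneurons, the fast-spiking inhibitory class, at 21.4 ± 10.9 CPM, and the class just above them, astrocytes, had 39.0 ± 5.76 CPM. Vip interneurons thus exceeded 4 of the 7 glutamatergic classes in mean Egr1 level.

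Egr3 was highest in L4/5 IT nuclei at 89.2 ± 30.0 CPM and cluster 4 at 84.2 ± 21.8 CPM, then L6 CT at 69.8 ± 22.5 CPM, L6 IT at 47.5 ± 12.9 CPM and L2/3 IT at 42.3 ± 9.93 CPM, and lowest in Pvalb at 3.98 ± 1.50 CPM. Egr4 led in the numbered clusters, with 56.9 ± 29.7 CPM in cluster 4 and 51.7 ± 29.5 CPM in cluster 10, ahead of L4/5 IT at 42.3 ± 20.9 CPM, and Pvalb was again last at 6.50 ± 3.22 CPM. Egr2 had its highest mean in L2/3 IT nuclei at 6.64 ± 4.89 CPM from 340 UMIs, followed by L4/5 IT at 5.41 ± 3.25 CPM, L6 CT at 4.72 ± 2.08 CPM, cluster 4 at 4.11 ± 1.92 CPM and L6 IT at 3.65 ± 2.35 CPM. No other class had more than 33 Egr2 UMIs. Among glutamatergic classes, L5/6 NP nuclei were the lowest for all 4 genes, at 45.5 ± 11.6 CPM of Egr1, 1.02 ± 0.868 CPM of Egr2, 12.4 ± 1.98 CPM of Egr3 and 10.2 ± 5.09 CPM of Egr4. For most neighbours in these orders the direction differed between mice. Of 68 neighbouring pairs, 6 had the same direction in 6 of 6 mice. These were pericytes and smooth muscle over cluster 4 and astrocytes over Pvalb for Egr1, L6 CT over cluster 4 for Egr2, and cluster 4 over L6 CT, L6 CT over L6 IT and L6 IT over L2/3 IT for Egr3. They reached 0.03125, the smallest p that the exact two-sided sign-flip permutation test over 6 mice can give (lowest adjusted p 0.354), so that test could not pass after adjustment over the 68 unless most pairs reached it. By edgeR with mouse as a block, Egr3 in L2/3 IT was below L6 IT by a log2 difference of -0.20 ± 0.06 (adjusted p 0.00632), a call that was lost in DESeq2 (adjusted p 0.102), without the mouse block (0.476) and without the low-count filter (0.0557).

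**Figure D1:**
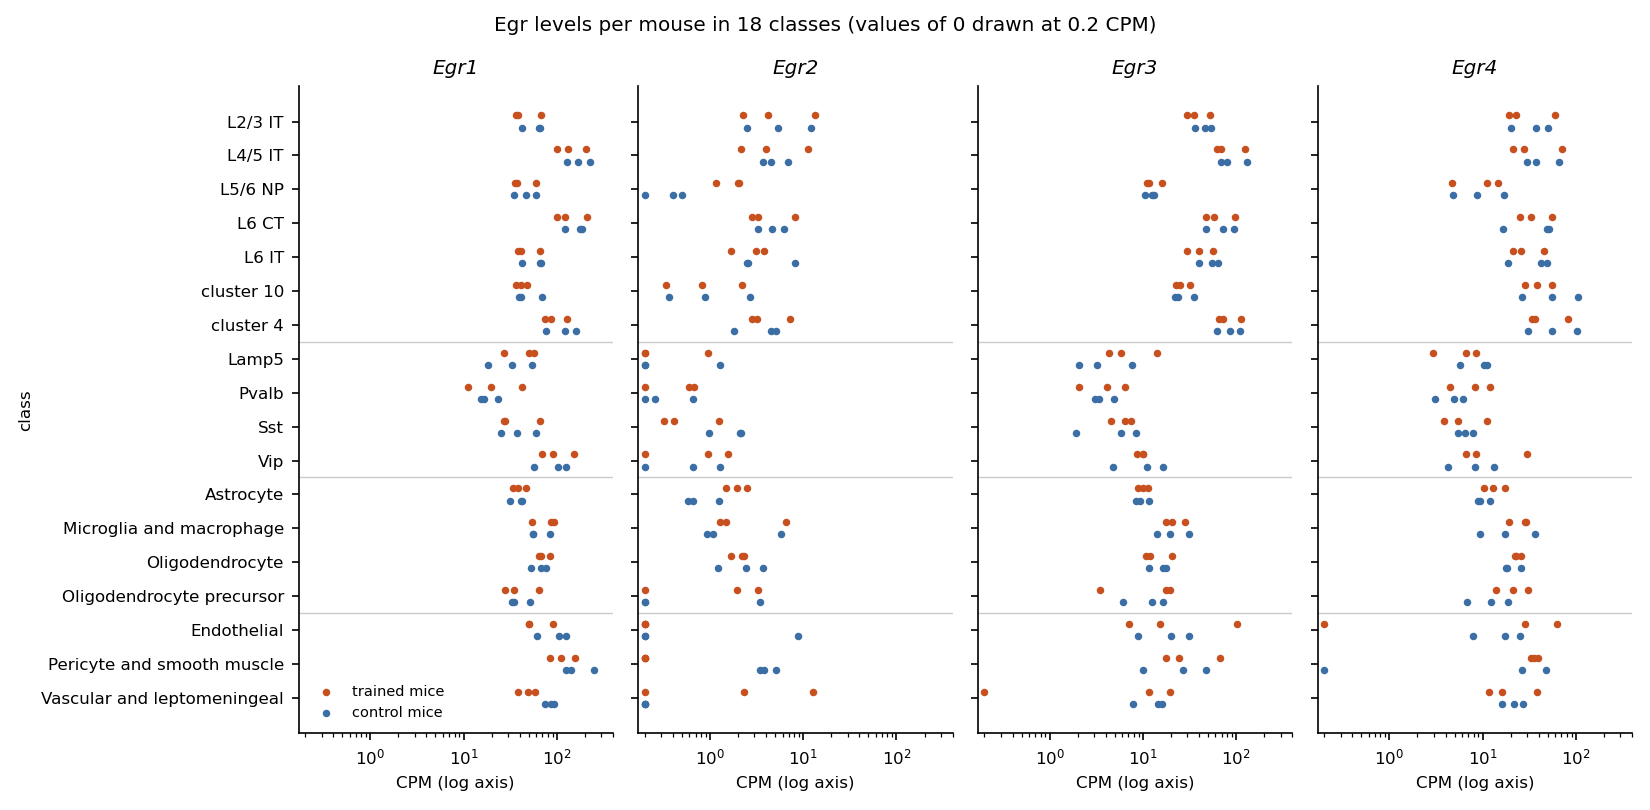
Levels of Egr1 to Egr4 in CPM (log axis) in 18 classes, 1 point per mouse, trained mice drawn above control mice, with lines between the glutamatergic, GABAergic, glial and vascular classes. The points of trained and control mice intermingle in nearly every class, and Pvalb interneurons have the lowest mean for each of the 4 genes.

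The Egr genes were placed differently between L2/3 IT nuclei and the other glutamatergic classes. Egr1 in L2/3 IT nuclei, 52.7 ± 14.9 CPM, was lower in 6 of 6 mice than in L4/5 IT, L6 CT and cluster 4 nuclei, with log2 differences of -1.54 ± 0.06, -1.41 ± 0.05 and -1.03 ± 0.06 (SE), all past the threshold by edgeR (adjusted p 1.25e-15, 2.4e-17 and 1.97e-13). Egr3 was lower in L2/3 IT nuclei than in the same 3 classes, by log2 differences of -0.99 ± 0.06, -0.57 ± 0.06 and -1.00 ± 0.05. Egr2 was higher in L2/3 IT than in 4 of the classes, with log2 differences of 0.83 ± 0.22 over L6 IT, 0.61 ± 0.15 over cluster 4, 0.51 ± 0.17 over L6 CT and 2.41 ± 0.24 over cluster 10 (adjusted p 0.00371, 0.00145, 0.0109 and 7.05e-09 by edgeR). Its difference from L4/5 IT, 0.35 ± 0.17, did not pass (adjusted p 0.0766). The Egr2 differences from L6 IT and L6 CT were positive in 4 of 6 mice each. The calls over L6 IT and L6 CT were lost without trained mouse 4, at 0.49 and 0.39, and in DESeq2, at 0.73 and 0.44. The call over L6 CT was also lost without control mouse 5, at 0.37, and all but the call over cluster 10 were lost without the mouse block. Against cluster 10 Egr3 was also higher in L2/3 IT, by 0.65 ± 0.08 (adjusted p 1.5e-07), while Egr1, at 0.20 ± 0.10, did not pass. Against L5/6 NP nuclei Egr1 and Egr3 were higher in L2/3 IT, by 0.51 ± 0.08 and 2.07 ± 0.12 (adjusted p 3.14e-06 and 1.02e-16 by edgeR). Against L6 IT the Egr1 difference was -0.06 ± 0.05 and did not pass (adjusted p 0.436). Egr4 was lower in L2/3 IT nuclei than in cluster 4 and cluster 10, by -0.70 ± 0.06 and -0.55 ± 0.11, and higher than in L5/6 NP nuclei, by 2.00 ± 0.15. Over all genes the share that differed from L2/3 IT was 55.3% for L4/5 IT, 61.7% for L5/6 NP, 61.3% for L6 CT, 36.1% for L6 IT, 62% for cluster 10 and 58% for cluster 4.

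Slc17a7 was also counted in nuclei that should not make it, at 16.9 to 32.5 CPM in GABAergic and 63.2 to 95.2 CPM in glial nuclei, against 211 to 295 CPM in glutamatergic nuclei. Among vascular classes it ran from 90.4 to 211 CPM in endothelial nuclei and from 98.5 to 141 CPM in pericytes and smooth muscle. In vascular and leptomeningeal nuclei it ran from 46.4 to 117 CPM. Free RNA in the droplets gives counts of this kind. There were 0.256 UMIs of Egr3 per Slc17a7 UMI in GABAergic nuclei and 0.164 in glial nuclei, against 0.242 in glutamatergic nuclei. No profile of free RNA was estimated, and its part in these levels was not tested. The Egr3 levels of GABAergic and glial nuclei are therefore not read as expression by those cells. Egr1 had 1.85 UMIs per Slc17a7 UMI in GABAergic nuclei, 3.08 in Vip interneurons and 0.640 in glia. In glutamatergic nuclei it had 0.385 when pooled and 0.599 in the L4/5 IT class. Egr4 had 0.326 in GABAergic and 0.203 in glial nuclei, against 0.164 in glutamatergic nuclei, and Egr2 rested on 38 and 70 UMIs in GABAergic nuclei and glia.

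Among genes with at least 20 CPM in 1 class or more, the profile most like that of Egr3 over the 18 class means of log2(CPM + 1) belonged to Dusp14, a phosphatase of MAP kinases (Pearson r = 0.947), Rtn4r, the Nogo receptor (0.946), Arc, a regulator of synaptic AMPA receptors (0.942), Npas4, an activity-induced transcription factor (0.923), and Exph5 (0.919). For Egr4 they were Rtn4r (0.906), Egr3 (0.889), Itpka, a kinase of inositol trisphosphate (0.875), the neurotrophin Bdnf (0.872) and Fam212b (0.866). Egr2 was most like Kcnh4, a voltage-gated potassium channel (0.892), Acvr1c, an activin receptor (0.865), the potassium channel Kcnk4 (0.863), Rtn4r (0.863) and Dusp14 (0.862). Egr1 had the loosest neighbours, the AP-1 subunit Junb (0.825), Ywhaz, a 14-3-3 protein (0.757), Gmeb2 (0.745), Fap, a serine protease (0.742), and Phyhip (0.741). Within the family r was 0.889 for Egr3 with Egr4, 0.850 for Egr2 with Egr3, 0.779 for Egr2 with Egr4, 0.725 for Egr1 with Egr3, 0.584 for Egr1 with Egr4 and 0.536 for Egr1 with Egr2. These coefficients describe 18 classes that share the same 6 libraries.

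Within 1 class, Egr levels differed widely between single mice of both groups. In pooled glutamatergic nuclei Egr1 stood at 65.1, 122 and 77.7 CPM in trained mice 2, 4 and 6, against 72.3, 112 and 139 CPM in control mice 1, 3 and 5. Egr2 stood at 2.54, 8.07 and 2.81 CPM in trained mice, against 2.33, 3.94 and 6.71 CPM in control mice. Trained mouse 4 and control mice 3 and 5 were high for these genes, while trained mice 2 and 6 and control mouse 1 were low. Egr3 stood at 50.3, 82.4 and 44.7 CPM in trained mice, against 45.0, 62.3 and 87.2 CPM in control mice. Egr4 stood at 25.3, 62.9 and 30.1 CPM in trained mice, against 22.6, 45.6 and 69.1 CPM in control mice. The highest mouse exceeded the lowest by 2.14-fold for Egr1, 3.46-fold for Egr2, 1.95-fold for Egr3 and 3.06-fold for Egr4, and the groups overlapped for all 4 genes. The 3 high mice were also the 3 with fewer UMIs per nucleus, and the part of depth in the mouse pattern was not tested.

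Fos, Arc and Junb were high in the same 3 mice. The AP-1 gene Fos stood at 16.4, 38.2 and 20.5 CPM in trained mice, against 15.4, 27.0 and 45.3 CPM in control mice. Arc stood at 73.2, 137 and 69.2 CPM in trained mice, against 62.3, 111 and 145 CPM in control mice. Junb ran from 51.0 to 137 CPM over the 6 mice. Homer1, whose short activity-induced form is not told apart from the long form here, did not share this pattern, with 869, 826 and 685 CPM in trained mice and 860, 756 and 1004 CPM in control mice. The corepressor Nab1 was nearly level, between 27.0 and 29.0 CPM in all 6 mice. Its relative Nab2, itself described as a target of EGR proteins, stood at 10.8, 16.9 and 9.56 CPM in trained mice, against 9.08, 15.0 and 12.7 CPM in control mice. Of the 11 neuronal classes, the highest mouse was trained mouse 4 or control mouse 5 in 10 for Egr1, 8 for Egr2, 9 for Egr3 and 8 for Egr4.

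**Figure D2:**
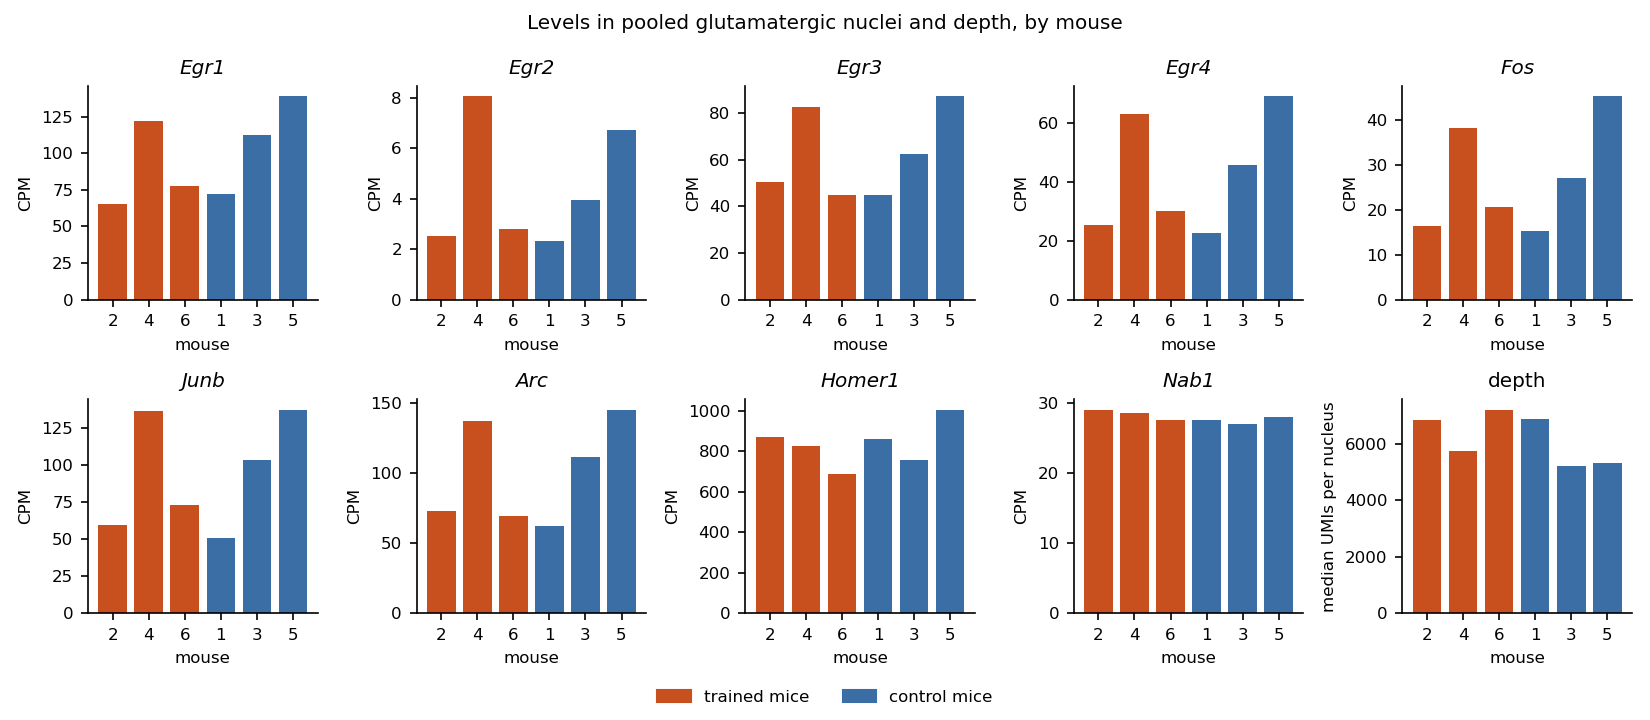
Levels in pooled glutamatergic nuclei (CPM, 1 bar per mouse) of Egr1 to Egr4, of the immediate early genes Fos, Junb, Arc and Homer1 and of the corepressor Nab1, and the median UMIs per nucleus of each mouse, with trained mice 2, 4 and 6 left of control mice 1, 3 and 5. Trained mouse 4 and control mice 3 and 5 are high for the Egr genes, Fos, Junb and Arc and low in depth, while Nab1 stays between 27.0 and 29.0 CPM.

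The comparison of trained with control mice asked whether lever-press training left a mark on Egr transcripts in any class. No Egr gene passed the threshold in any class. Of 66 tests over the 18 classes, the pooled glutamatergic, GABAergic and glial nuclei and all nuclei together, edgeR called 0 (lowest adjusted p 0.728) and 1 had an unadjusted p under 0.05, while DESeq2 called 0 and had 0 at an unadjusted p under 0.05. Over all genes in these sets of sums, edgeR called 0.00907% of tests, and 3.76% had an unadjusted p under 0.05. In pooled glutamatergic nuclei the log2 fold changes, trained over control, were -0.25 ± 0.27 for Egr1, 0.12 ± 0.50 for Egr2, -0.09 ± 0.27 for Egr3 and -0.17 ± 0.43 for Egr4 (SE). The median of the 4 was -0.13, beside -0.01 over all genes tested.

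In single classes the estimates fell on both sides of 0, with 29 positive and 22 negative of 51 that had enough UMIs to be tested. Egr1 was below 0 in all 7 glutamatergic and all 3 vascular classes and above 0 in all 4 GABAergic and all 4 glial classes, and none of these values passed. Egr1 in L4/5 IT nuclei stood at 101, 208 and 133 CPM in trained mice, against 129, 170.5 and 224 CPM in control mice, a log2 fold change of -0.22 ± 0.25. Egr1 in Pvalb interneurons stood at 11.3, 42.1 and 19.8 CPM in trained mice, against 15.4, 16.4 and 23.6 CPM in control mice, a log2 fold change of 0.40 ± 0.35. In both classes trained mouse 4 lay far from the other trained mice, and the groups overlapped.

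Egr4 had the largest positive estimates, in classes where it was scarce. In Pvalb interneurons it stood at 4.45, 12.0 and 8.23 CPM in trained mice, against 3.09, 4.95 and 6.23 CPM in control mice (71 against 47 UMIs), with a log2 fold change of 0.80 ± 0.38. This was 0.09 ± 0.43 with doublets kept and 0.40 ± 0.41 without trained mouse 4. With a covariate for each mouse it was larger, 1.20 ± 0.36 for median UMIs per nucleus and 1.32 ± 0.40 for mitochondrial percent. In oligodendrocyte precursors Egr4 stood at 21.4, 30.8 and 13.9 CPM in trained mice, against 6.80, 18.7 and 12.2 CPM in control mice (34 against 37 UMIs), with 0.83 ± 0.41. In Vip interneurons it stood at 6.71, 29.6 and 8.55 CPM in trained mice, against 4.31, 13.2 and 8.34 CPM in control mice, with 0.94 ± 0.50. The adjusted p of these 3 values lay between 0.999 and 1 by edgeR, and in each class at least 1 trained mouse lay within the control range. In cluster 10, where Egr4 was abundant, it stood at 28.5, 54.8 and 38.6 CPM in trained mice, against 26.8, 55.3 and 106 CPM in control mice, a log2 fold change of -0.57 ± 0.39.

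The 1 test with an unadjusted p under 0.05 was Egr1 in vascular and leptomeningeal nuclei, the fibroblast-like cells of the vessel wall and the meninges. It stood at 38.6, 48.5 and 58.0 CPM in trained mice, against 86.1, 92.4 and 74.3 CPM in control mice, from 39 and 73 UMIs. The groups did not overlap, the log2 fold change was -0.68 ± 0.32, the unadjusted p was 0.0405 and the adjusted p 0.988 by edgeR. With doublets kept it was -0.37 ± 0.24. Egr1 also had estimates below 0 in pericytes and smooth muscle, at -0.62 ± 0.35, and in endothelial nuclei, at -0.71 ± 0.46, where the groups overlapped. Of the 51 tested pairs of gene and class, Egr1 in vascular and leptomeningeal nuclei was the only one without overlap, while 9.36% of all tests in the 18 classes had none. Outside these pairs, Egr2 in pooled glia also did not overlap, at 2.13 ± 0.332 CPM in trained and 1.55 ± 0.104 CPM in control mice. It rested on 33 and 37 UMIs (log2 fold change 0.48 ± 0.33, adjusted p 0.966 by edgeR), and 11.2% of genes tested in pooled glia had no overlap. Among pairs with too few UMIs to test, Egr2 did not overlap in astrocytes (1.94, 2.50 and 1.49 CPM in trained mice, against 0.583, 1.24 and 0.662 CPM in control mice, from 15 and 9 UMIs), in L5/6 NP nuclei (7 against 2 UMIs) and in pericytes and smooth muscle (0 against 3 UMIs). The share of all such scarce genes without overlap is not given here.

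**Figure D3:**
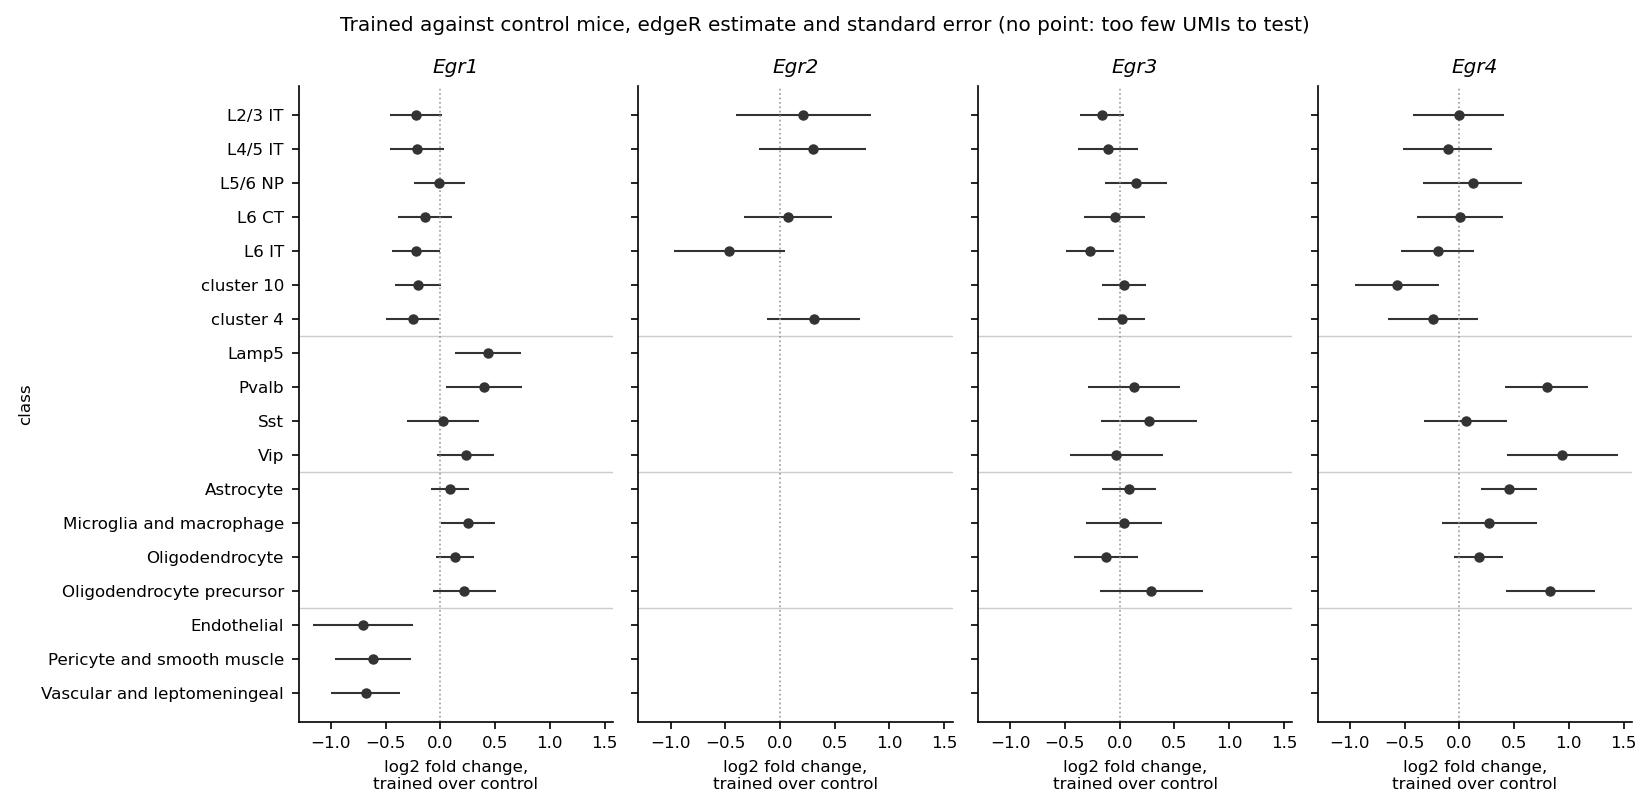
The log2 fold change of each Egr gene, trained over control mice (n = 3 each), with its standard error by edgeR in each of the 18 classes, where classes without enough UMIs carry no point. The points lie on both sides of 0, from -0.71 for Egr1 in endothelial nuclei to 0.94 for Egr4 in Vip interneurons, and none passed the threshold.

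These values moved with single mice and with depth. Without trained mouse 4, 11 of the Egr tests had an unadjusted p under 0.05 and the Egr1 estimate in pooled glutamatergic nuclei was -0.56 ± 0.24, and without control mouse 5 it was -0.04 ± 0.29. With the median UMIs per nucleus of each mouse as a covariate, 24 had an unadjusted p under 0.05, the estimate for Egr4 in pooled glutamatergic nuclei was 0.49 ± 0.21 in place of -0.17 ± 0.43, and no test passed after adjustment. The share of all genes under 0.05 in these fits is not given here, so neither count is read as particular to the Egr genes.

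The share of nuclei with any Egr UMI, after every nucleus was thinned to 2000 UMIs, was compared in 40271 nuclei deep enough. In pooled glutamatergic nuclei 27.9 ± 7.69% of nuclei had at least 1 Egr UMI in trained mice and 30.8 ± 7.54% in control mice (SD, n = 3 each). In L4/5 IT nuclei, the class with the largest share, it was 37.5 ± 11.9% in trained and 40.6 ± 8.56% in control mice, and in Pvalb interneurons, the class with the smallest, 5.54 ± 3.35% in trained and 6.13 ± 1.18% in control mice. GABAergic nuclei as a whole had 10.8 ± 4.25% in trained and 10.9 ± 2.30% in control mice, and glia 13.1 ± 0.837% in trained and 12.3 ± 1.82% in control mice. No share passed the exact two-sided permutation test, whose smallest p for 3 against 3 mice is 0.1, so that none could pass, and every adjusted p was 1. The groups did not overlap for Egr1 in pericytes and smooth muscle, at 10.9 ± 2.78% in trained and 24.5 ± 4.31% in control mice. Nor did they for Egr2 in L5/6 NP nuclei (1.14% and 0%) or for 2 or more Egr UMIs in Pvalb interneurons (0.951% and 0.2%). The share of all genes without overlap is not given for this measure.

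Of 277 nuclei with 4 or more Egr UMIs, 269 were glutamatergic, 6 GABAergic and 0 glial. Among glutamatergic nuclei, 15 of 3447, 95 of 4591 and 17 of 2374 reached this count in trained mice 2, 4 and 6, against 19 of 4928, 62 of 6033 and 61 of 3429 in control mice 1, 3 and 5. The same mice were high here as in mean level.

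**Figure D4:**
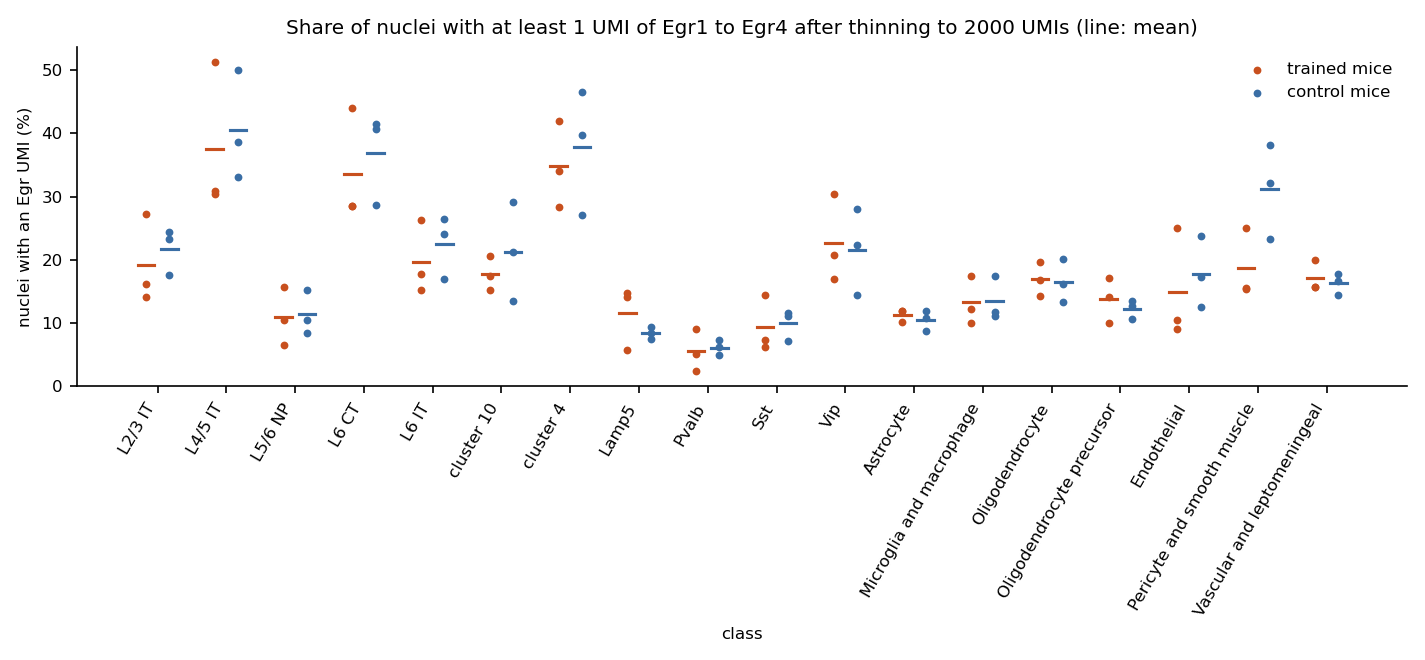
Share of nuclei with at least 1 UMI of Egr1 to Egr4 after thinning to 2000 UMIs, 1 point per mouse and a line at each mean, with trained mice left of control mice. L4/5 IT nuclei have the largest means, 37.5% in trained and 40.6% in control mice, and Pvalb interneurons the smallest.

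Whether a training difference of 1 class differed from that of another was tested directly. In astrocytes, where 21 of 12323 genes passed between trained and control mice (0.17%), Egr1 averaged 39.7 ± 6.51 CPM in trained and 38.3 ± 6.26 CPM in control mice, Egr3 10.1 ± 1.15 and 9.79 ± 1.67 CPM, and Egr4 13.6 ± 3.60 and 10.1 ± 1.62 CPM (SD, n = 3 each). The log2 fold changes were 0.09 ± 0.17, 0.08 ± 0.25 and 0.46 ± 0.25, and none passed. Other immediate early genes did pass there, 6 of 25 tested, all higher in trained mice. Among these were the orphan nuclear receptors Nr4a2 and Nr4a3, with log2 fold changes of 3.26 ± 0.49 and 2.80 ± 0.41, the matricellular gene Cyr61 with 1.32 ± 0.18 and the salt-inducible kinase Sik1 with 1.07 ± 0.18 (adjusted p 0.0131, 0.0124, 0.00723 and 0.0291 by edgeR). The difference between the training effects in astrocytes and in glutamatergic nuclei was 0.30 ± 0.25 for Egr1, 1.16 ± 0.65 for Egr2, 0.14 ± 0.27 for Egr3 and 0.57 ± 0.32 for Egr4, with adjusted p between 0.783 and 0.973 by edgeR, and 0.122% of 17234 genes passed.

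Between GABAergic and glutamatergic nuclei the training effects differed by 0.39 ± 0.10 for Egr1, which had an unadjusted p of 0.00176 and an adjusted p of 0.619 by edgeR, and by 0.49 ± 0.19 for Egr4 (adjusted p 0.92). None of 17306 genes passed (0%). Without a filter on low counts the Egr1 difference, 0.38, passed (adjusted p 0.0209 by edgeR), and the share of all genes called in that fit is not given here. It did not pass in DESeq2, at 0.38, or without the mouse block, at 0.43 (unadjusted p 0.39 by edgeR). Of the genes around the family, the 19 cofactors and regulators found in the files (Nab1, Nab2, Srf, the Elk genes, Creb1 and others) passed in 0 of 355 tests between trained and control mice, and the 19 genes described as bound or regulated by EGR proteins in 0 of 274. The 31 other immediate early genes passed in 6 of 474, all in astrocytes. These tests cover the single classes, the pooled nuclei and all nuclei together, which share nuclei. Over all genes 0.00907% of such tests passed, so the counts of 0 are not read as particular to those lists.

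Within single mice, nuclei high in Egr transcripts were compared with nuclei that had none. Egr-positive nuclei had at least 2 Egr UMIs after thinning to 2000, Egr-zero nuclei had 0, and L2/3 IT, L4/5 IT, L6 CT and cluster 4 held enough of both in every mouse. The 4 genes themselves split the nuclei and are not results. There were 283 Egr-positive and 4233 Egr-zero nuclei in L2/3 IT, 638 and 2480 in L4/5 IT, 620 and 3342 in L6 CT, and 560 and 2946 in cluster 4.

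Egr-positive nuclei carried more of most other immediate early genes in all 4 classes. In L2/3 IT, 139 of 5945 genes passed (2.34%, edgeR with mouse as a block), 124 higher (2.09%) and 15 lower, and 14 of the 16 other immediate early genes tested were among the higher. In L4/5 IT, 155 of 5481 passed (2.83%), 87 higher (1.59%), with 14 of 16 immediate early genes higher. In L6 CT, 223 of 6865 passed (3.25%), 147 higher (2.14%), with 16 of 18 immediate early genes higher. In cluster 4, 72 of 5869 passed (1.23%), 63 higher (1.07%), with 10 of 15 immediate early genes higher. The totals moved by over 1.5 times between settings. DESeq2 called 92, 43, 99 and 35 genes in these classes, in the same order. Thinning to 3000 UMIs gave 467, 394, 618 and 316. Without trained mouse 4, 76 passed in L2/3 IT and 79 in L4/5 IT, and without control mouse 3, 75 passed in L4/5 IT and 123 in L6 CT. Without the mouse block 22 passed in L4/5 IT, 55 in L6 CT and 35 in cluster 4. The immediate early genes called higher by DESeq2 were 13 of 16, 9 of 16, 14 of 18 and 9 of 15. Of the immediate early genes tested none was lower in any of the 4 classes. The median log2 difference of the list was 1.92 in L2/3 IT, 0.97 in L4/5 IT, 1.45 in L6 CT and 0.97 in cluster 4, beside -0.04, -0.00, 0.00 and 0.00 over all genes tested. The list held 31 genes, and those tested had passed a low-count filter that 1 kind of nuclei alone could satisfy. Scarce genes could thus enter only through the Egr-positive nuclei where they are high, which can raise these fractions and medians. The same limit applies to the other gene lists in this split.

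In L2/3 IT nuclei Arc had a lowest of 93.8, a median of 193 and a highest of 319 CPM over the 6 mice in Egr-positive nuclei, against 25.6, 47.0 and 71.5 CPM in Egr-zero nuclei. The 2 kinds of nuclei did not overlap across mice, and Arc was higher in Egr-positive nuclei in 6 of 6 mice. Its difference was 4.12-fold (log2 2.04 ± 0.19, adjusted p 4.52e-23 by edgeR). Homer1, the postsynaptic scaffold gene, had the smallest p, with a lowest of 1115, a median of 1301 and a highest of 2250.0 CPM in Egr-positive nuclei, against 409, 498 and 552 CPM in Egr-zero nuclei, a 2.84-fold difference (log2 1.50 ± 0.09, adjusted p 2.06e-60 by edgeR). The orphan receptors Nr4a3 and Nr4a2 were 7.53-fold and 7.50-fold higher, the antiproliferative Btg2 6.33-fold, Fos 6.76-fold, Junb 4.62-fold, the prohormone convertase Pcsk1 5.10-fold, Tiparp 4.16-fold and Ina, an intermediate filament of neurons, 3.64-fold.

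The differences in the other classes were smaller for most of these genes. Fos was 2.47-fold higher in Egr-positive L4/5 IT nuclei, 3.87-fold in L6 CT and 2.08-fold in cluster 4, and Arc 1.95-fold, 2.06-fold and 2.02-fold. Whether the classes differ in these folds was not tested. Class by class, the genes of smallest p also included Dusp1, a phosphatase of MAP kinases, Plcxd2, Aldoa and Ifrd1 in L4/5 IT, Tmem178, Cyr61 and Cpeb3, a regulator of synaptic translation, in L6 CT, and Tnfaip6, the chaperone Hspa8 and Bdnf in cluster 4. Bdnf was 2.46-fold higher in Egr-positive nuclei of cluster 4, and Tnfaip6 7.74-fold.

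Across the 4933 genes tested in all 4 classes, 19 were higher in Egr-positive nuclei of every class and 0 were lower in every class. Among them were Actb, Arc, Chgb, Cpeb3, Cx3cl1, Dusp1, Fos, Gm47423, Homer1, Hspa8, Junb, Npas4, Nr4a1, Nr4a3, Ntrk2, Pcsk1, Rheb and Tiparp. The 19 genes made up 15.3% of the higher genes of L2/3 IT, 21.8% of L4/5 IT, 12.9% of L6 CT and 30.2% of cluster 4. Beside immediate early genes they included Ntrk2, the receptor of the neurotrophin encoded by Bdnf, with log2 differences of 0.71, 0.25, 0.57 and 0.39 in that order of classes, and Rheb, the activator of mTOR signalling, with 1.36, 0.57, 0.67 and 0.61.

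**Figure D5:**
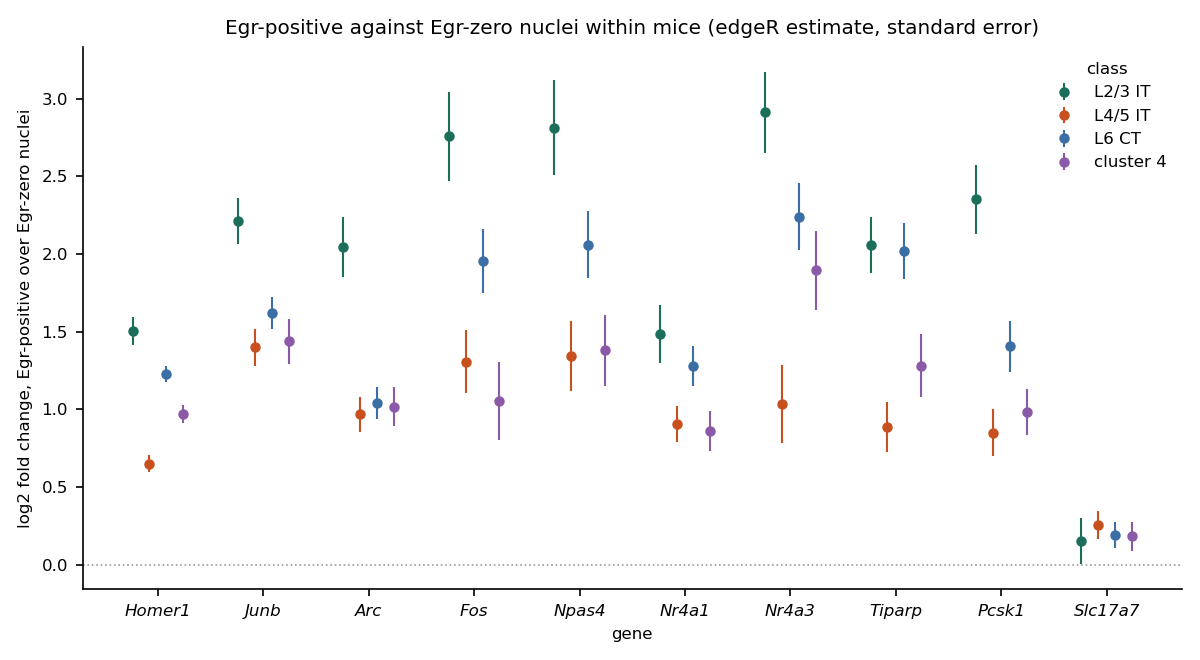
The log2 fold change of 10 genes in Egr-positive over Egr-zero nuclei of the same mice (edgeR estimate and standard error) in L2/3 IT, L4/5 IT, L6 CT and cluster 4. The 9 genes left of Slc17a7 are above 0 in every class, with Fos at 2.76 in L2/3 IT, while Slc17a7 lies between 0.15 and 0.26.

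Of the genes described as bound or regulated by EGR proteins, some were higher. Arc was higher in all 4 classes and Per1, a clock gene, in 3 (log2 1.03 ± 0.24 in L2/3 IT, 0.64 ± 0.16 in L4/5 IT and 0.75 ± 0.19 in L6 CT). Cdk5r1, the p35 activator of Cdk5, was higher in L4/5 IT (0.62 ± 0.18), and the neuropeptide precursor Vgf in L6 CT (0.69 ± 0.15). In all, 2 of 10 tested were higher in L2/3 IT, 3 of 10 in L4/5 IT, 4 of 10 in L6 CT and 1 of 10 in cluster 4, and none was lower. These shares were 20%, 30%, 40% and 10%, beside 2.09%, 1.59%, 2.14% and 1.07% of all genes tested in the same classes. Arc and Per1 are also immediate early genes of the other list. No cofactor or regulator passed, of 10, 12, 14 and 11 tested, and Nab2 was too scarce to be tested in any of the 4.

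The genes lower in Egr-positive nuclei were fewer and differed less. In L4/5 IT they were led by the splicing regulator Rbfox1 (log2 -0.35 ± 0.05), the nuclear RNA Malat1 (-0.20 ± 0.03), Lrrtm4 (-0.31 ± 0.05), the adhesion gene Cntnap2 (-0.27 ± 0.05) and the AMPA receptor subunit Gria3 (-0.53 ± 0.09). Rbfox1 and Cntnap2 were also lower in cluster 4, at -0.29 ± 0.04 and -0.24 ± 0.05, with Pcdh7, Sgcz and Gpc6. In L6 CT those of smallest p included Lsamp, Cntnap4 (-1.57 ± 0.22), the netrin receptor Dcc and Rbfox1, and in L2/3 IT Cdh18 (-0.66 ± 0.14), Mnat1, Lrp1b, Sphkap and Cntnap2. Slc17a7 differed little, by 0.15 ± 0.15, 0.26 ± 0.09, 0.19 ± 0.08 and 0.18 ± 0.09 in the 4 classes, and did not pass. A shift in subtypes within a class between the 2 kinds of nuclei was not tested.

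Taken over all classes, the 4 genes were found in the same nuclei more often than their separate shares give within a class. Detection of each pair was compared within classes and mice after thinning, as an odds ratio with no test since nuclei are not replicates. Egr2 and Egr4 were the most tightly paired, with a median odds ratio over 6 mice of 3.37 (2.43 to 7.50) and 69 nuclei with both, where independence gives 22.1. Egr1 and Egr2 had 2.45 (1.34 to 4.36), from 91 nuclei with both against 50 given by independence. Egr3 and Egr4 had 2.10 (1.94 to 2.78), from 412 against 233 nuclei. Egr2 with Egr3 had 1.82 (1.30 to 5.11), Egr1 with Egr3 1.65 (1.20 to 1.76) and Egr1 with Egr4 1.63 (1.57 to 1.961). Over all classes together every pair was above 1 in 6 of 6 mice, and the pairs with Egr2, which rest on the fewest nuclei, had the widest ranges. GABAergic nuclei alone did not show this and held few nuclei with both genes of a pair. There Egr1 with Egr3 ran from 0 to 1.88 over the mice, with 0 to 4 such nuclei per mouse.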

How the data were processed

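Nuclei of the caudal forelimb area of 3 trained and 3 control mice were profiled by droplet single-nucleus RNA sequencing, with 1 library per mouse. The files deposited by the authors hold raw UMI counts per gene and nucleus, made with Cell Ranger 4.0.0 on mm10, per the submitters' processing notes. The labels list 12 samples, 2 sequencing runs for each mouse. Of 51926 barcodes, nuclei with at least 500 genes and under 5% mitochondrial UMIs that Scrublet did not call doublets (2391 were) were kept, 49292 in all, and 311 barcode sequences occurred in more than 1 library. They were clustered with scanpy 1.11.5 (2000 variable genes without activity-regulated genes, 30 components, 20 neighbours, Leiden resolution 1), and clusters were named by at least 3 markers. Names were rebuilt here. Nuclei below 2000 UMIs (9021) were left out of shares, splits and co-detection.

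UMI counts were summed per mouse and class and tested with edgeR 4.0.16 (quasi-likelihood, TMM, its low-count filter, Benjamini-Hochberg adjustment over all genes of the class at 0.05), with mouse as a block in comparisons within mice. DESeq2 1.42.0 was an alternative. Standard errors are the log2 fold change over the root of the F statistic. Trained and control mice are separate animals that share no replicate number, so p-values measure the spread between 3 animals in each group. Genes named in the split of nuclei were the 10 higher and 5 lower of smallest p in each class, the 4 of smallest p in each gene list, and the 5 closest profiles per Egr gene, and others were chosen after their values were seen. Some genes that this rule names are not reported here. The 4 genes and the gene lists were chosen with earlier results of these data known. The procedures were checked on simulated counts.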

Additional observations from a re-analysis of the deposited data

How the results depend on the processing

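No paired analysis was possible for trained against control mice because the groups share no mouse number. Under every alternative no Egr gene passed between trained and control mice, and in the interaction 1 passed (0 before) without the filter on low counts. That gene was Egr1, between GABAergic and glutamatergic nuclei, and it passed in no other alternative run. All 8 differences between glutamatergic and GABAergic or glial nuclei passed under every alternative run. Counts of genes differing between Egr-positive and Egr-zero nuclei moved most, and the cause was not tested. Without the replicate block they were 22 in L4/5 IT, 55 in L6 CT and 35 in cluster 4. DESeq2 gave 92 in L2/3 IT, 43 in L4/5 IT, 99 in L6 CT and 35 in cluster 4. Thinning to 3000 UMIs gave 467, 394, 618 and 316 in the same order. A threshold of 3 Egr UMIs gave 79 in L6 CT and 29 in cluster 4, and no low-count filter 124 in cluster 4. Leaving out 1 mouse gave 76 to 144 in L2/3 IT, 75 to 138 in L4/5 IT, 123 to 197 in L6 CT and 48 to 78 in cluster 4, the lowest without trained mouse 4 in L2/3 IT and without control mouse 3 in L4/5 IT and L6 CT. The odds ratio of Egr1 with Egr4 was 1.98 after thinning to 4000 UMIs. Depth limits Egr2 most, which had enough UMIs for a test in 5 of 18 classes.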

Other observations

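The genes around the EGR family were also compared between the pooled classes. Of all genes, 32.4% were higher and 37.8% lower in glutamatergic than in GABAergic nuclei, and 42.1% higher and 40.5% lower than in glia. Of 18 cofactors and regulators tested, 14 were higher and 3 lower in glutamatergic than in GABAergic nuclei, among them the corepressor Nab2 (log2 1.79 ± 0.10) and Mkl2, a coactivator of serum response factor (1.78). Of 15 genes described as regulated by EGR proteins, 10 were higher and 4 lower, with Arc at 3.47 and Per1 at 1.15, and with the GABAergic marker Gad1 at -6.17 and acetylcholinesterase, Ache, at -1.65. Of 28 other immediate early genes, 26 were higher in glutamatergic nuclei, with Klf10 at 4.83, Bdnf at 4.46 and Homer1 at 3.03. Against glia, 10 of 18 cofactors were higher and 6 lower, a share called (88.9%) near the 82.6% of all genes, and 12 of 16 described targets were higher and 3 lower, with the NMDA receptor subunit Grin1 at 3.68 and Tgfb1 at -5.87.

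The training effect on 4 other immediate early genes differed between astrocytes and glutamatergic nuclei (4 of 29 tested, edgeR). The differences were 3.41 ± 0.52 for Nr4a2, 2.95 ± 0.45 for Nr4a3, 1.30 ± 0.21 for Nr4a1 and 1.23 ± 0.20 for Fos (adjusted p 0.00719, 0.00719, 0.0117 and 0.0117). None of the 4 Egr genes was among them.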
